A study of Mus musculus with 12 samples.

Results

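The insulin-like growth factor (IGF) axis in these cells comprised 10 genes. They were the ligands Igf1 and Igf2, the receptor Igf1r, the binding proteins Igfbp2, Igfbp3, Igfbp4, Igfbp5, Igfbp6 and Igfbp7, and the protease Pappa. The genes were picked by symbol from a counts table of 56941 genes, and 8 of the 10 had enough counts to be among the 14810 genes tested. The set was chosen by a rule that named these genes with their levels in all 4 conditions known, so fold changes and calls of the 10 are given as a description, without p values.

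IGF-I and IGF-II are secreted growth factors that signal through the type 1 IGF receptor, a receptor tyrosine kinase. IGF-binding proteins hold most IGF outside the cell, and PAPP-A, the product of Pappa, is a metalloprotease that cleaves IGFBP-4 and some other binding proteins and so frees the ligand near the receptor. Fibroblasts are a known source of IGF-I, of binding proteins and of PAPP-A in skin and in healing wounds.

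RNA was measured in 3T3-L1, a wild-type line of mouse embryonic fibroblasts that can also be turned into adipocytes, and each of the 4 conditions had 3 libraries. Control cultures received vehicle. The IL-4/13 cultures received 50 ng/mL of IL-4 and the same dose of IL-13. The Inf cultures received an inflammatory mix, in which IL-17A was at 50 ng/mL, TNF-α at 20 and IL-1β at 0.5 ng/mL. The IL-4/13 + Inf cultures received all 5 cytokines, and every treatment lasted 24 hours. The comparisons ask how the type 2 cytokines IL-4 and IL-13 act on fibroblasts alone and in an inflammatory setting. Because 1 line was used and no label says that the libraries came from separate cultures, the errors measure only the spread between these libraries, which may be technical.

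Libraries held 13446005 to 20775769 counts, so that 3 counts, taken here as the lowest level that can be told from 0, corresponded to 0.146 to 0.22 counts per 1000000 counts (CPM, with library sizes scaled by the trimmed mean of M-values). All pairs of libraries of 1 condition differed by more than sampling noise, and the largest chi-square per gene, 8.53, belonged to a pair with Inf replicate 3. All 9 fibroblast markers were tested, and they summed to 14652 to 16701 CPM with vehicle and 10623 to 10863 CPM with IL-4/13 + Inf. They did not move together. Mean levels with IL-4/13 + Inf were above vehicle for Dcn (1440 against 103.2 CPM), Pdgfra (224.7 against 196.1) and Pdgfrb (281.7 against 268.9). Means were below vehicle for Col1a1, Col1a2, Col3a1, Vim, Thy1 and S100a4. Of 8 adipocyte markers, 4 were at or under 3 counts in every library, and the list summed to 111.7 to 116.5 CPM with vehicle and 79.5 to 86.0 CPM with IL-4/13 + Inf. Among the 4 tested, mean Fabp4 was higher with IL-4/13 + Inf (19.4 against 11.3 CPM), while Lpl, Pparg and Cebpa were lower. Of 8 macrophage markers, 2 were at or under 3 counts in every library, while the list summed to 20.4 to 23.9 CPM in control and 46.9 to 61.6 CPM in Inf libraries, most of it from Cd14 (on average 14.9 CPM in control and 44.7 CPM in Inf). Mean Mrc1 was also higher in Inf than in control libraries (2.11 against 0.181 CPM), while Csf1r was lower (2.64 against 3.54). Means of Cd68 (1.08 against 1.01 CPM) and Lyz2 (3.17 against 2.89) were close. The part of these marker changes in the results on the IGF axis was not tested. In bulk RNA, fewer cells that express a gene and less RNA per cell cannot be told apart.

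The 250 bases upstream of the annotated start are shown for 3 members that changed strongly with Inf. The windows of Igf1 and Igfbp5 each held 1 of the searched motifs. That of Igfbp3, the member with the greatest increase, held none, as did those of Igf2, Igf1r, Igfbp4, Igfbp6 and Igfbp7. A relation between motifs and responses was not tested. Sequences are from RefSeq in the GRCm38.p6 build, 5′ to 3′ on the strand of the gene, and capitals mark a motif match. They lie at chr10:87860861-87861110 (plus strand), chr1:72874866-72875115 (minus strand) and chr11:7213924-7214173 (minus strand).
Igf1: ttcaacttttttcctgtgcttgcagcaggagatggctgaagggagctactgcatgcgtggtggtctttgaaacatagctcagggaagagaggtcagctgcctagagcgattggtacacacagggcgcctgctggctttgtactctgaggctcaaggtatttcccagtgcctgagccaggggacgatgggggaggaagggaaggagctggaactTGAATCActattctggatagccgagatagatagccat
Igfbp5: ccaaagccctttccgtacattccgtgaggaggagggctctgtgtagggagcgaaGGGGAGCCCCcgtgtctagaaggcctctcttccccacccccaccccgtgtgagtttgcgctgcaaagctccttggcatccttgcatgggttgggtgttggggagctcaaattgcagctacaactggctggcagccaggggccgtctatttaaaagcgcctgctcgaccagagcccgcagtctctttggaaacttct
Igfbp3: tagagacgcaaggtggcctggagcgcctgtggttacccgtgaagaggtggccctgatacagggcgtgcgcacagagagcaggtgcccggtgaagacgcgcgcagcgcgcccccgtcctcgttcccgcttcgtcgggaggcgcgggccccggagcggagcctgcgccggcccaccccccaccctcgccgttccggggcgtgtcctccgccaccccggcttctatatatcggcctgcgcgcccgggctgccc

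The letters searched on both strands were TTCNNNGAA (STAT), the same with 1 more N (STAT6), TGANTCA (AP-1) and the NF-κB consensus. They were present in 7.02%, 5.85%, 6.75% and 3.90% of 32851 promoter windows of the same length. Entries were found for 9 of the 10 members, all but Pappa. The Igf1 match, TGAATCA, was to the letters searched for AP-1, which allow any middle base, and lay 37 bases before the start. The Igfbp5 match was to the NF-κB consensus, on the minus strand of the window, 196 bases before the start. The only other match was an AP-1 sequence in the second Igfbp2 window, a gene without counts here. A match describes letters in a window and does not show that a factor binds there.

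Igf1 was the member ligand with a measurable level, and both cytokine groups moved it, in opposite directions. Control libraries had 34.1, 30.6 and 32.2 CPM, IL-4/13 libraries 42.2, 44.9 and 49.1 CPM, Inf libraries 7.51, 7.79 and 6.18 CPM, and IL-4/13 + Inf libraries 10.2, 9.50 and 8.77 CPM. None of the 4 groups overlapped, and from high to low the order was IL-4/13, control, the combination and Inf. Inf lowered Igf1 4.50-fold (log2 fold change −2.17, SE 0.10). IL-4/13 raised it 1.40-fold over control (log2 fold change 0.49, SE 0.081) and 1.33-fold over Inf (0.41, SE 0.115). The call over Inf was lost without Inf replicate 3 (log2 fold change 0.32) or without IL-4/13 + Inf replicate 1 (0.35). The interaction, which is the IL-4/13 response in the presence of Inf less that in its absence, was −0.08 on the log2 scale (95% interval −0.37 to 0.21), although the added level was 13.1 CPM without and 2.33 CPM with Inf. Igf1 lies on chromosome 10, and the antisense gene Igf1os that overlaps it had 0 to 2 counts.

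**Figure D1:**
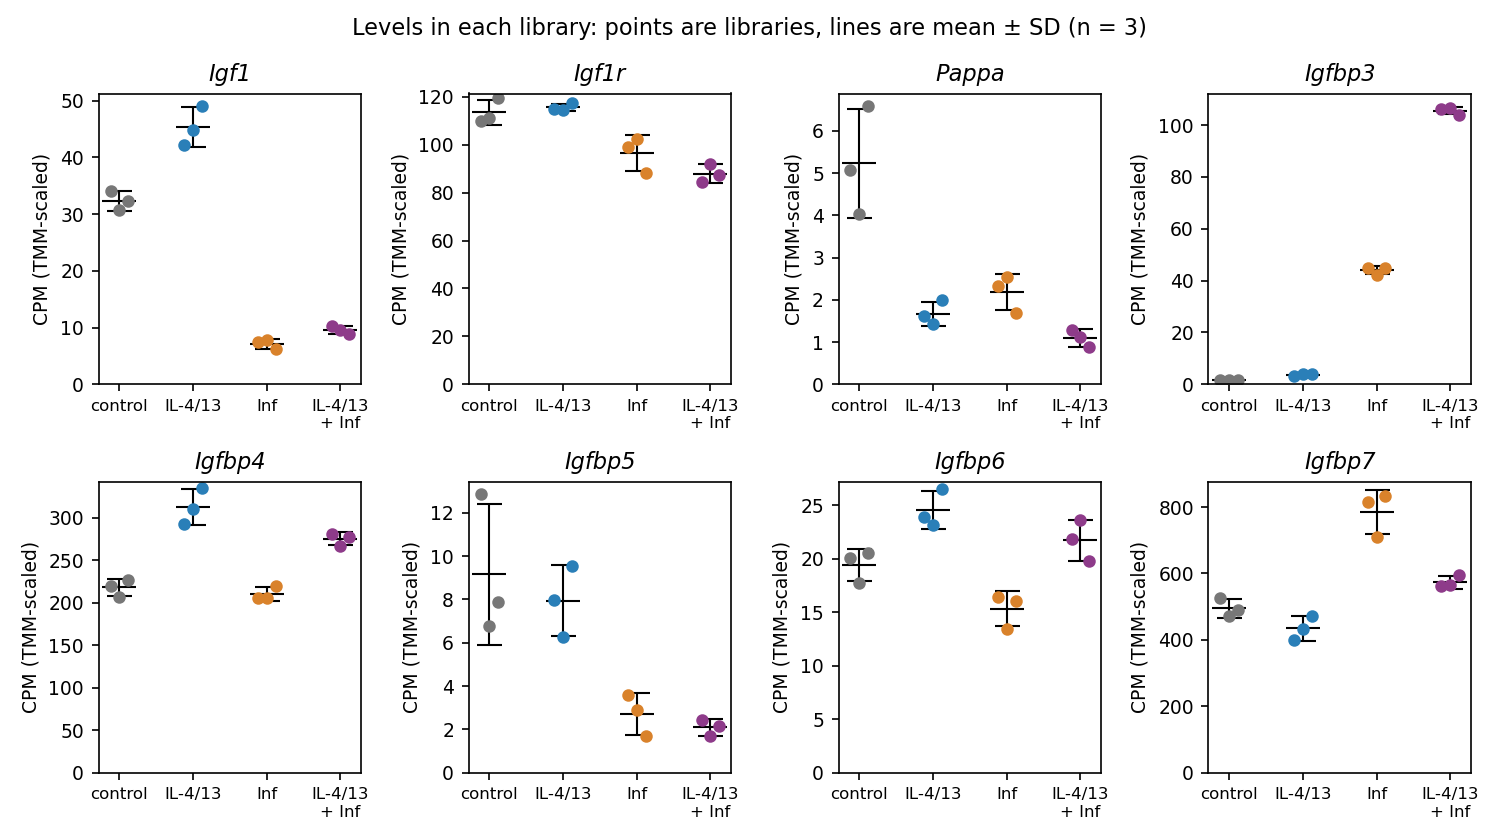
Level of the 8 tested members in each of the 12 libraries, in CPM on linear axes that start at 0, by condition. Points are libraries and lines are the mean ± SD (n = 3). Igfbp3 reached 104 to 106 CPM in IL-4/13 + Inf libraries against 1.56 to 1.77 CPM in control libraries, while Pappa was highest in control libraries, at 4.03 to 6.60 CPM.

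Igf2, the second ligand, is an imprinted fetal growth factor. It had 1 count in control replicate 2, 2 counts in IL-4/13 replicate 3 and 0 in the other 10 libraries. These levels were under the limit of 3 counts in every library, so no fold change is given. In the reference annotation 75.9% of the 50-base stretches of the longest Igf2 transcript also occurred in the overlapping gene Gm49394. Reads from Igf2 could therefore have been lost if shared reads were left out, and the low count is uncertain. Gm49394 itself had no counts.

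The receptor Igf1r, which transmits the IGF signal, changed little. Control libraries had 109.9, 111.3 and 119.6 CPM, and IL-4/13 libraries 115.0, 114.6 and 117.3 CPM. Inf libraries had 99.2, 102.5 and 88.2 CPM, and IL-4/13 + Inf libraries 84.3, 92.0 and 87.5 CPM. Control and IL-4/13 libraries overlapped, and each library with Inf was below all 6 without it. IL-4/13 + Inf libraries were 1.29-fold lower than control (log2 fold change −0.37, SE 0.056) and 1.31-fold lower than IL-4/13 (−0.39, SE 0.056). The difference of Inf from control, −0.23 (95% interval −0.35 to −0.12), was inside the fold threshold of 0.25. It was called without Inf replicate 1 (−0.25), without Inf replicate 2 (−0.27), with unscaled library sizes (−0.26) or with no fold threshold. IL-4/13 alone gave 0.03 (95% interval −0.09 to 0.14).

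Igfbp3 encodes the main IGF carrier of serum and was the member that changed most. Control libraries had 1.77, 1.61 and 1.56 CPM, IL-4/13 libraries 3.21, 4.08 and 3.90 CPM, Inf libraries 44.9, 42.2 and 44.7 CPM, and IL-4/13 + Inf libraries 106.2, 106.5 and 103.9 CPM. The 4 groups were fully separate, and the spread within each was small against the steps between them. Inf raised Igfbp3 26.5-fold (log2 fold change 4.73, SE 0.107), and IL-4/13 raised it 2.23-fold over control (1.16, SE 0.165) and 2.40-fold over Inf (1.27, SE 0.062). With all 5 cytokines it was 63.7-fold over control (5.99, SE 0.099). The fold response to IL-4/13 was close with and without Inf, with a difference of 0.11 on the log2 scale (95% interval −0.28 to 0.49). In CPM, IL-4/13 added 2.08 without Inf and 61.6 with Inf. Control counts were low, down to 26 in 1 library, which limits the precision of the responses measured from control. Igfbp3 is next to Igfbp1 on chromosome 11, and Igfbp1 had no count in any library.

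Igfbp4, the classical substrate of PAPP-A, was raised by IL-4/13, while Inf alone gave no detectable change from control. Control libraries had 219.7, 206.7 and 227.2 CPM and Inf libraries 205.6, 205.3 and 219.6 CPM, so these groups overlapped. IL-4/13 libraries had 292.5, 309.5 and 335.1 CPM and IL-4/13 + Inf libraries 281.0, 266.7 and 277.6 CPM, all above the 6 libraries without IL-4/13. IL-4/13 gave a log2 fold change of 0.52 (SE 0.049, 1.43-fold) from control and 0.39 (SE 0.049, 1.31-fold) from Inf. Inf against control was −0.05 (95% interval −0.15 to 0.05). In the presence of IL-4/13, Inf gave −0.18 (95% interval −0.28 to −0.08). This was inside the fold threshold and was called lower only with no fold threshold. Both responses to IL-4/13 were called in all 12 fits that each left out 1 library.

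Pappa went the other way from Igfbp4 under IL-4/13. Control libraries had 5.09, 4.03 and 6.60 CPM, IL-4/13 libraries 1.61, 1.43 and 1.98 CPM, Inf libraries 2.33, 2.53 and 1.70 CPM, and IL-4/13 + Inf libraries 1.29, 1.12 and 0.88 CPM. Every treated library was below every control library, IL-4/13 and Inf libraries overlapped, and IL-4/13 + Inf libraries were the lowest. Pappa was 3.15-fold lower with IL-4/13 (log2 fold change −1.65, SE 0.241), 2.38-fold lower with Inf (−1.25, SE 0.227) and 4.69-fold lower with both (−2.23, SE 0.252), each against control. IL-4/13 + Inf was 1.97-fold below Inf (−0.98, SE 0.280), a call that was lost without Inf replicate 2 (−0.84). It was not called below IL-4/13 (−0.58, 95% interval −1.18 to 0.03). The interaction was 0.68 (95% interval −0.10 to 1.45), so a smaller fall in the presence of Inf was not shown. Pappa rested on 13 to 110 counts per library, the fewest of the tested members at the low end, and lies on chromosome 4 between Tnc and Astn2.

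**Figure D2:**
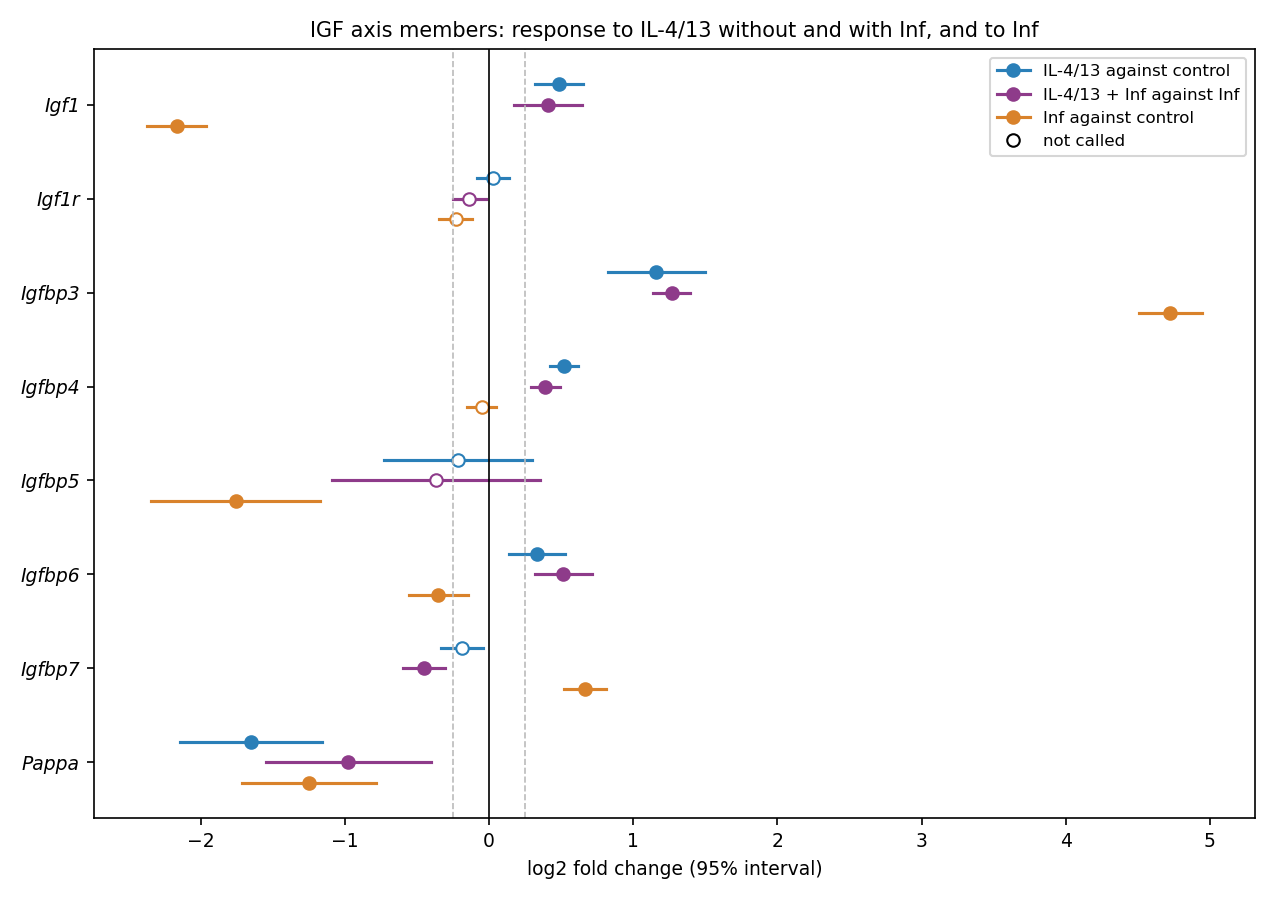
Log2 fold change of the 8 tested members (horizontal axis, points with 95% intervals) for Inf and IL-4/13, each set against control, and for the combination set against Inf. Filled points passed an adjusted p of 0.05 and a log2 fold change of 0.25 (dashed lines), open points did not. The 2 responses to IL-4/13 lie near each other for Igf1 (0.49 and 0.41) and Igfbp3 (1.16 and 1.27), and Inf moved Igf1 (−2.17) and Igfbp3 (4.73) in opposite directions.

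Igfbp5, a matrix-binding IGFBP that PAPP-A can also cleave, was lower with Inf. Control libraries had 12.9, 6.76 and 7.86 CPM and IL-4/13 libraries 7.98, 6.29 and 9.56 CPM. Inf libraries had 3.59, 2.87 and 1.70 CPM and IL-4/13 + Inf libraries 2.43, 1.69 and 2.16 CPM. Libraries with and without Inf did not overlap, whereas those with and without IL-4/13 did. Inf lowered Igfbp5 3.39-fold (log2 fold change −1.76, SE 0.275), and both cytokine groups together lowered it 4.37-fold (−2.13, SE 0.286) from control. IL-4/13 gave −0.22 from control (95% interval −0.73 to 0.30) and −0.37 from Inf (95% interval −1.09 to 0.36), intervals too wide to show either a change or its absence. Igfbp2, the neighbour of Igfbp5 on chromosome 1, on the opposite strand, had 0 counts in all 12 libraries, where 3 counts per library are the limit.

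Igfbp6, a binding protein with a preference for IGF-II, followed a small and balanced pattern. Control libraries had 20.1, 17.7 and 20.5 CPM, IL-4/13 libraries 23.9, 23.2 and 26.5 CPM, Inf libraries 16.5, 13.4 and 16.1 CPM, and IL-4/13 + Inf libraries 21.8, 23.6 and 19.8 CPM. IL-4/13 libraries lay above and Inf libraries below control, and IL-4/13 + Inf libraries overlapped both control and IL-4/13. IL-4/13 raised Igfbp6 1.43-fold over Inf (log2 fold change 0.51, SE 0.098), a call kept in all 12 fits without 1 library. The smaller rise over control (0.33, SE 0.095) was lost without control replicate 1 (0.36), control replicate 2 (0.27), IL-4/13 replicate 1 (0.35) or IL-4/13 replicate 3 (0.28). The fall with Inf (−0.35, SE 0.099) was lost without Inf replicate 2 (−0.25). IL-4/13 + Inf differed from control by 0.16 (95% interval −0.03 to 0.36).

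Igfbp7, a secreted relative that binds IGFs weakly, was raised by Inf both without and with IL-4/13. Control libraries had 527.3, 471.2 and 489.4 CPM and IL-4/13 libraries 399.5, 431.9 and 473.2 CPM, which overlapped. Inf libraries had 815, 709 and 832.6 CPM, and IL-4/13 + Inf libraries 561.2, 563.9 and 596.3 CPM, between Inf and all libraries without Inf. Inf raised Igfbp7 1.58-fold over control (log2 fold change 0.66, SE 0.067), and IL-4/13 + Inf was 1.32-fold above IL-4/13 (0.40, SE 0.067). IL-4/13 + Inf was 1.37-fold below Inf (−0.45, SE 0.067). IL-4/13 alone gave −0.19 (95% interval −0.34 to −0.05), which was called only without IL-4/13 replicate 3 (−0.25). IL-4/13 + Inf against control, at 0.21, was called only without control replicate 1 (0.26) or with no fold threshold. The interaction was −0.26 (95% interval −0.47 to −0.06) and was not called with all 12 libraries, but it was called without IL-4/13 replicate 1 (−0.32), without Inf replicate 2 (−0.33) or without the filter on low counts (−0.26). Igfbp7 overlaps Polr2b on the opposite strand, a gene with 2167 to 3150 counts per library. The strand setting of the counting is not given in the sources used here, so a share of reads from the overlap cannot be told apart.

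Counting all 8 tested members, 4 were called higher and 1 lower with IL-4/13 against control, where 2.78% and 2.57% of all tested genes were called. Inf against control gave 2 higher and 4 lower (16.3% and 15.3% of all genes), and IL-4/13 + Inf against control also gave 2 and 4 (13.4% and 11.5%). IL-4/13 + Inf against Inf gave 4 higher and 2 lower (7.55% and 7.00%), and IL-4/13 + Inf against IL-4/13 gave 2 and 3 (13.3% and 11.0%). No member was called for a difference between the responses to IL-4/13 with and without Inf (1.52% and 1.59% of genes). DESeq2 also called 0, and the edgeR 95% interval of this difference left out 0 for Igfbp7 and Igf1r. The median log2 fold change of the members was 0.18 with IL-4/13, where that of all tested genes was −0.0014, and −0.29 with Inf, where that of all genes was 0.0073. Because the members were chosen with these values known, and the comparisons share control or Inf libraries, nothing is read from these counts about the set.

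Levels can be set side by side only per length, so CPM were divided by the kilobases of the longest annotated transcript. In control libraries Igfbp7 was highest at 413.3 ± 23.9 CPM per kb (SD, n = 3), followed by Igfbp4 at 56.9 ± 2.71, Igfbp6 at 17.5 ± 1.35, Igf1r at 9.96 ± 0.459 and Igf1 at 4.58 ± 0.247. Igfbp5 at 1.53 ± 0.541, Igfbp3 at 0.681 ± 0.0454 and Pappa at 0.475 ± 0.117 CPM per kb were lowest, and each step exceeded the SDs of the genes on its sides. In IL-4/13 + Inf libraries Igfbp3 stood at 43.6 ± 0.573 CPM per kb, below only Igfbp7 and Igfbp4, while Pappa was at 0.0995 ± 0.0188. With the median transcript length, which includes short annotated fragments, Igf1r and Igf1 came above Igfbp6 in control (56.9 and 23.6 against 17.5 CPM per kb), and in IL-4/13 libraries Igfbp4 came above Igfbp7 (409.1 against 375.5).

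The makeup of the binding protein transcripts shifted with treatment. Igfbp7 made up 84.4% ± 0.636 of the summed level per kb in control libraries (SD, n = 3). Its share was 77.3% ± 0.401 with IL-4/13, 88.2% ± 0.531 with Inf and 77.9% ± 0.786 with both. Igfbp4 held 11.6% ± 0.543, 17.4% ± 0.213, 7.42% ± 0.485 and 11.7% ± 0.361 in the same order. Igfbp3 went from 0.139% ± 0.006 in control to 0.329% ± 0.0303 with IL-4/13, 2.45% ± 0.120 with Inf and 7.11% ± 0.260 with both. The summed level was 489.9, 468.9, 742.0 and 613.5 CPM per kb, so shares and levels moved on different bases. With the median transcript length Igfbp4 held 38.9% in control and 50.5% in IL-4/13 libraries, and the share of Igfbp3 in IL-4/13 + Inf libraries was 5.52%.

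**Figure D3:**
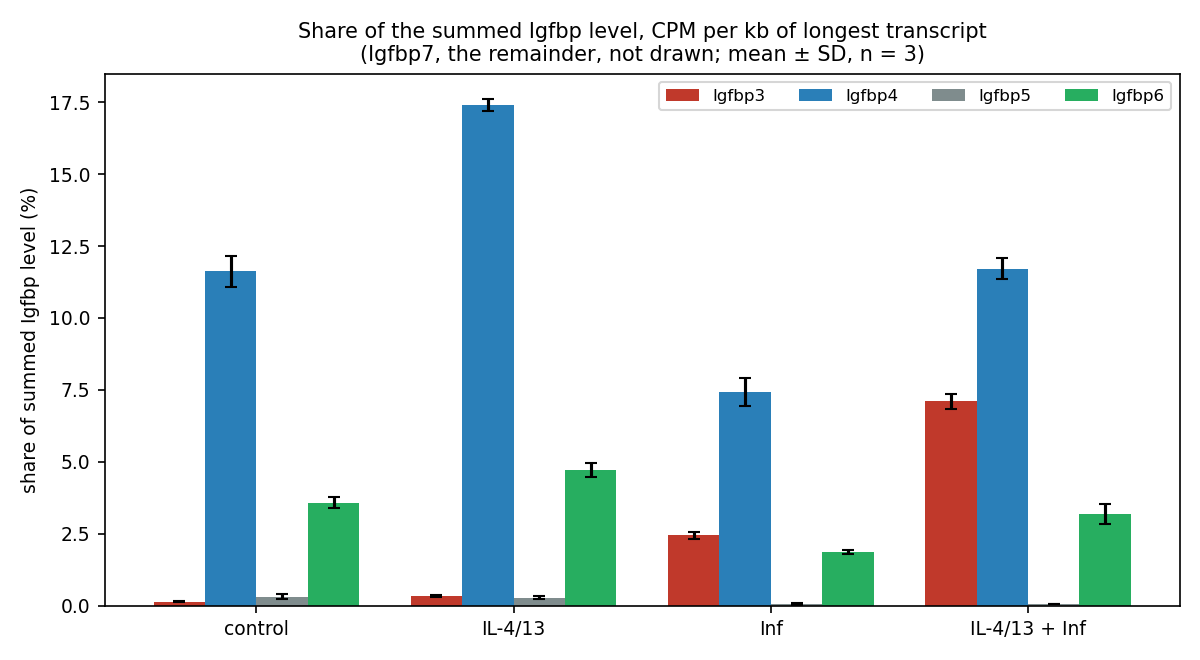
Share of each binding protein gene in the summed Igfbp level per kb of longest transcript (vertical axis, percent), by condition, as mean ± SD of 3 libraries. Igfbp7 is the remainder and is not drawn. Igfbp4 was highest with IL-4/13 (17.4%), and Igfbp3 rose from 0.139% in control to 7.11% with IL-4/13 + Inf.

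Genes whose profile over the 4 condition means was most like that of a member were found by the root mean square difference of centred log2 CPM, among 11246 genes with at least 5 CPM in 1 condition. For Pappa they were Spry1 (0.30), Nrep (0.32), Adamtsl3 (0.33), Dpt (0.34) and Glt8d2 (0.34). Mean Pappa was lower with IL-4/13 than with Inf (1.67 against 2.19 CPM), as was Glt8d2. Spry1, Nrep, Adamtsl3 and Dpt had the reverse order. Spry1, an inhibitor of receptor tyrosine kinase signalling, had 30.7, 16.3, 12.5 and 9.41 CPM with vehicle, IL-4/13, Inf and the combination. Dpt, which encodes the matrix protein dermatopontin, had 43.3, 22.6, 14.6 and 10.8 CPM. For Igf1 the nearest were Trabd2b (0.18) and Dynap (0.19), and for Igfbp5 Cplx2 (0.053) and Col6a3 (0.092), a collagen VI chain with 357.6, 324.2, 119.3 and 79.4 CPM. Sprr2d was nearest to Igfbp3 (0.11), at 0 CPM with vehicle, 0.128 with IL-4/13, 3.23 with Inf and 7.92 with all cytokines. Its means with vehicle and with IL-4/13 lie under the limit of 3 counts. Its likeness there depends on the prior count of 2 that was added before taking logs. When likeness was measured over the 12 libraries, 3 of the 5 genes nearest to Pappa and both of those nearest to Igf1 were the same. Of the 2 nearest to each other member, 1 was the same for Igfbp3 and for Igfbp5, and 0 for Igf1r, Igfbp4, Igfbp6 and Igfbp7.

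Of 62 other genes of the pathway, 51 were tested, and these are given with adjusted p values over all tested genes from the edgeR quasi-likelihood test. The lists were drawn up by role, but with earlier results of these data known, so the p values are not independent evidence for a list. IL-4/13 raised 3 and lowered 4 of the 51, where 2.78% and 2.57% of all tested genes were called. Inf raised 15 and lowered 13 (16.3% and 15.3% of all genes), and IL-4/13 + Inf against Inf raised 6 and lowered 11 (7.55% and 7.00%). Their median log2 fold changes were −0.018, −0.049 and −0.056, where those of all tested genes were −0.0014, 0.0073 and −0.0098.

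Among 8 PAPP-A relatives, inhibitors and other IGFBP proteases, 7 were tested, and Inf raised 2 and lowered 4, where 16.3% and 15.3% of all tested genes were called. Their median log2 fold change with Inf was −0.29, against 0.0073 over all genes. With IL-4/13 alone 0 of the 7 were called by edgeR or by DESeq2 (2.78% and 2.57% of all genes), and in each 2 had an unadjusted p under 0.05. However, 1 was called without IL-4/13 replicate 1, without Inf replicate 3, or with only the compared libraries fitted. On top of Inf, IL-4/13 raised 2 and lowered 3 (7.55% and 7.00%). Pappa2, the paralog of Pappa, had 3.28 ± 0.826 CPM with vehicle, 3.10 ± 0.539 with IL-4/13, 1.06 ± 0.132 with Inf and 0.975 ± 0.248 with both (SD, n = 3). It was 3.09-fold lower with Inf (edgeR adjusted p = 1.7e-05), while IL-4/13 gave −0.08 (95% interval −0.58 to 0.41, edgeR adjusted p = 0.897), against −1.65 for Pappa. The difference between these 2 genes was not tested. Stc1, a stanniocalcin that inhibits PAPP-A, was 2.45-fold higher with Inf (20.6 ± 0.757 to 50.6 ± 2.53 CPM, edgeR adjusted p = 1.07e-14) and 1.60-fold lower when IL-4/13 was added to Inf (edgeR adjusted p = 3.6e-08). Stc2, the related inhibitor, was 1.60-fold higher with IL-4/13 + Inf than with Inf (5.67 ± 0.825 to 9.10 ± 1.65 CPM, edgeR adjusted p = 0.00169).

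Other proteases that can act on binding proteins moved in both directions. Adamts1 was 2.58-fold lower with Inf (202.0 ± 11.2 to 78.2 ± 5.76 CPM, edgeR adjusted p = 7.2e-16) and 1.74-fold higher with IL-4/13 + Inf than with Inf (edgeR adjusted p = 3.82e-10). Adam12 was 1.58-fold lower with Inf (edgeR adjusted p = 9.31e-07) and 1.47-fold lower again with IL-4/13 added (edgeR adjusted p = 0.000123). Htra3 was higher with Inf at a log2 fold change of 0.40 (edgeR adjusted p = 0.0128), a call lost without Inf replicate 2 or Inf replicate 3 (0.35 in both, edgeR adjusted p = 0.0543 and 0.0513). It was lower with IL-4/13 + Inf than with Inf (−0.50, edgeR adjusted p = 0.00519).

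**Figure D4:**
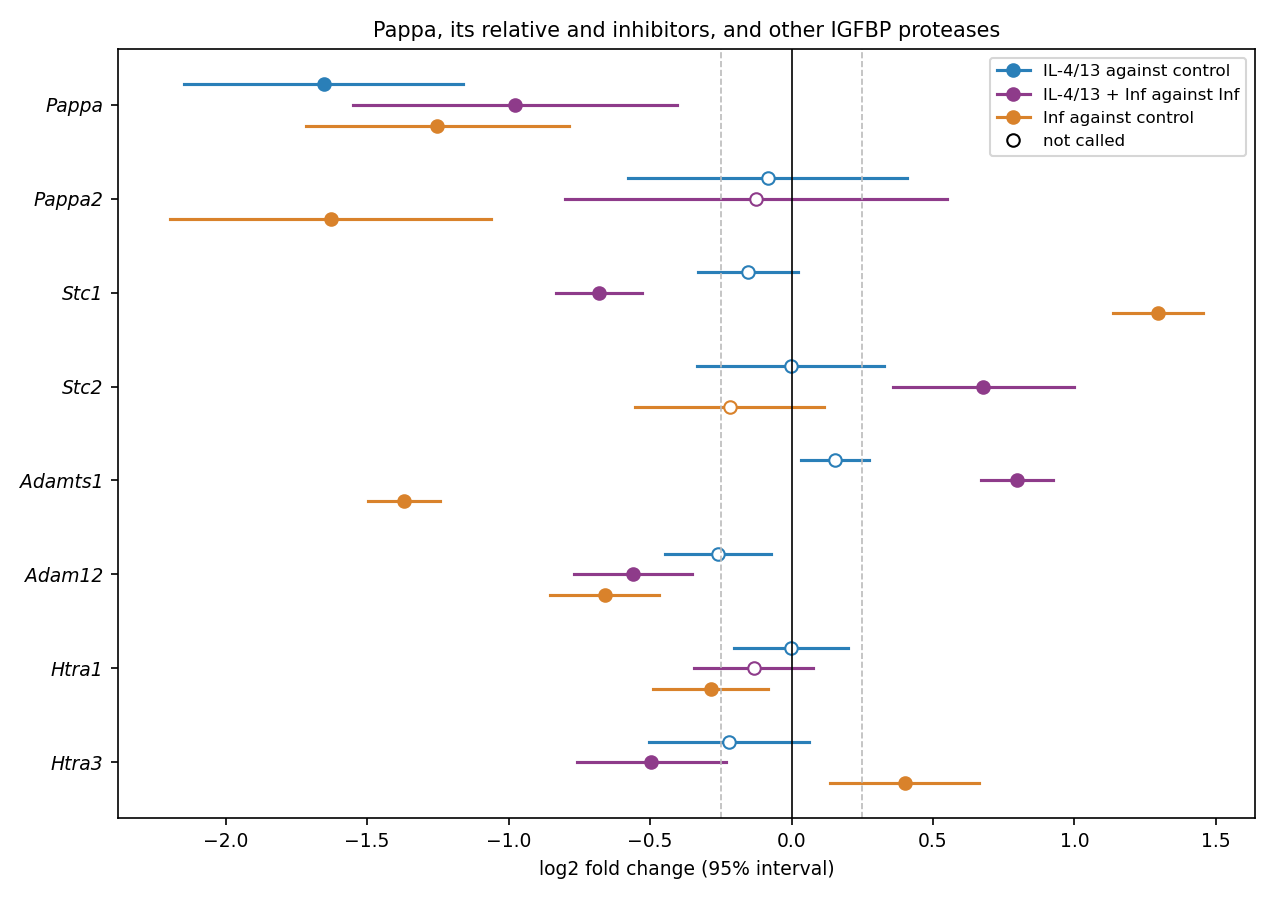
Log2 fold change (horizontal axis, points with 95% intervals) of Pappa and of the 7 tested genes of its relatives, inhibitors and other IGFBP proteases in the 3 comparisons. Filled points passed an adjusted p of 0.05 and a log2 fold change of 0.25. Pappa (−1.65) was the only gene drawn with a filled point for IL-4/13 against control.

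Of 11 receptors and adaptors of the axis, 9 were tested. IL-4/13 raised 1 and lowered 0 of these (2.78% and 2.57% of all genes), and Inf raised 3 and lowered 2 (16.3% and 15.3%), with medians of −0.02 and −0.08. Irs1, the docking protein that links the IGF and insulin receptors to PI3K, had 37.4 ± 1.44 CPM with vehicle, 55.2 ± 2.30 with IL-4/13, 17.8 ± 1.78 with Inf and 26.2 ± 0.985 with both (SD, n = 3). IL-4/13 raised Irs1 1.48-fold over control (edgeR adjusted p = 1.19e-06) and 1.46-fold over Inf (edgeR adjusted p = 5.7e-06), and Inf lowered it 2.08-fold (edgeR adjusted p = 1.26e-12). Its order of conditions was that of Igf1. Irs2 was lower with Inf (log2 fold change −0.46, edgeR adjusted p = 2.98e-05) and gave −0.02 with IL-4/13 (edgeR adjusted p = 0.935). Insr, the insulin receptor, was higher with Inf (0.47, edgeR adjusted p = 1.04e-05). The largest rise with Inf in this list was that of the adaptor Grb14 (0.97, edgeR adjusted p = 4.49e-13). Igf2r, which takes up and degrades IGF-II, was lower with IL-4/13 + Inf than in control (−0.53, edgeR adjusted p = 0.0107), and gave −0.33 with Inf (edgeR adjusted p = 0.0644).

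The growth hormone arm, which controls IGF-I in liver, had 5 genes, all tested, of which Inf raised 2 and lowered 0 (16.3% and 15.3% of all genes). Jak2, the kinase of the growth hormone receptor and of several cytokine receptors, was 3.52-fold higher with Inf (44.3 ± 1.73 to 156.1 ± 12.2 CPM, edgeR adjusted p = 6.96e-22). Stat5a was also higher with Inf (log2 fold change 1.24, edgeR adjusted p = 1.67e-12). Socs2, a feedback inhibitor of this arm, was lower with IL-4/13 against control (−0.62, edgeR adjusted p = 0.00271) and against Inf (−0.75, edgeR adjusted p = 0.000147). Of the 19 PI3K, AKT, mTOR and FOXO genes, Inf raised 5 and lowered 4, with a median of 0.07. Among all tested genes 16.3% and 15.3% were called. Foxo3, a transcription factor that AKT holds out of the nucleus, was 2.72-fold higher with Inf (edgeR adjusted p = 1.84e-18), and Akt1 was lower (−0.43, edgeR adjusted p = 9.83e-11).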

How the data were processed

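Polyadenylated RNA from 12 libraries, 3 per condition, was sequenced after a stranded preparation. The deposited values were raw gene counts, and the submitters' processing notes name STAR, featureCounts and GRCm39 without versions. The annotation, the strand setting and the handling of shared reads are not given in the sources used here, and they bear on overlapping genes such as Igf2 and Igfbp7.

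Counts of all genes were fitted in edgeR 4.0.16 (R 4.3.3) with TMM factors, filterByExpr by condition (minimum count 10) and a robust quasi-likelihood model over all 12 libraries. P values were adjusted by Benjamini-Hochberg within each comparison. Calls needed an adjusted p under 0.05 together with an absolute log2 fold change over 0.25. The study's methods name DESeq2, which was run as an alternative (version 1.42.0). CPM are counts per 1000000 counts of TMM-scaled library size. Depth was 13446005 to 20775769 counts.

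The members, the pathway lists and the tests were chosen with earlier results of these data known. Pathway genes were named by a rule: Igf2r, Insr, Irs1, Irs2, Pappa2, Stc1, Stc2 and Igfbp1 always, and for each list and comparison up to 2 called genes in each direction with the largest change and at least 5 CPM; a selection of these is given. Every other pathway gene named in the text, Htra3, Akt1, Stat5a and Foxo3 among them, was picked by the second part, for the size of its change. Genes nearest in profile were the 5 (Pappa) or 2 (others) with the smallest distance. Transcript lengths came from GENCODE M21, and promoter windows from RefSeq.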

Additional observations from a re-analysis of the deposited data

Results flagged for a closer look

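No member passed the test of the difference between its responses to IL-4/13 with and without Inf. Of the 51 tested genes of the pathway lists, 2 were called higher and 5 lower, where 1.52% and 1.59% of all tested genes were called. These 7 are given as log2 response with Inf minus response without Inf (edgeR, 3 libraries per condition). Stc1, the PAPP-A inhibitor, had −0.53 (edgeR adjusted p = 0.00492), from −0.15 without Inf to −0.68 with it. Adamts1, a secreted metalloprotease, had 0.64 (edgeR adjusted p = 2.38e-05), from 0.15 to 0.80. Grb14, an adaptor that inhibits the insulin receptor, had −0.68 (edgeR adjusted p = 4.82e-05), from −0.15 to −0.83. Gab1, a docking adaptor, had 0.59 (edgeR adjusted p = 0.00153), from −0.09 to 0.50. Ccn5, a secreted protein with an IGFBP-type domain, had −0.75 (edgeR adjusted p = 0.00604), from −0.89 to −1.64. These 5 kept their calls in all 12 fits that left out 1 library.

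Pik3r1, the regulatory subunit of PI3K, had −0.35 (edgeR adjusted p = 0.0192), from 0.32 without Inf to −0.03 with it. Its call was lost without control replicate 1, IL-4/13 replicate 1, Inf replicate 1, Inf replicate 2, IL-4/13 + Inf replicate 1 or IL-4/13 + Inf replicate 3, with values of −0.34 to −0.31. Ghr, the growth hormone receptor, had −0.32 (edgeR adjusted p = 0.0235), from −0.08 to −0.40. Its call was lost without control replicate 1, control replicate 3, IL-4/13 replicate 1, IL-4/13 replicate 3, Inf replicate 2, IL-4/13 + Inf replicate 2 or IL-4/13 + Inf replicate 3, with values of −0.32 to −0.27.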

How the results depend on the processing

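DESeq2, its size factors in edgeR and the fit of only the compared libraries gave the same number of called members in each comparison they were run for, and no member or named pathway gene changed sign in a called value. The interaction was not run for only the compared libraries. With unscaled library sizes Igf1r was also called for Inf against control (−0.26), so that 5 members were lower in place of 4. Without the filter on low counts 1 member (Igfbp7) was called for the interaction in place of 0, and leaving out 1 library gave 0 to 1. At a log2 fold change of 1 the called members went from 5 to 2 (IL-4/13 against control), from 6 to 1 (IL-4/13 + Inf against Inf) and from 5 to 3 (IL-4/13 + Inf against IL-4/13), and all called genes from 792 to 108, 2155 to 238 and 3598 to 936. Pappa was not tested when a mean of 50 counts was required. With the replicate block 5 members were called for IL-4/13 against control, as without it, and 388 genes were higher and 329 lower in place of 412 and 380. The numbers did not pair the libraries: the 18 same-number correlations were −0.146 to 0.0543, and 0 of 12 libraries correlated best with their own number. Depth limits Igf2, Igfbp2 and, through 13 to 110 counts, Pappa.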

Other observations

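H19, the imprinted RNA that neighbours Igf2 in the genome, was among the genes listed with the IGF family, and it all but disappeared with Inf. It had 239, 188 and 196 counts in control and 172, 178 and 115 counts in IL-4/13 libraries. Inf libraries had 0, 2 and 6 counts, and IL-4/13 + Inf libraries had 0, 1 and 0 counts. Against the limit of 3 counts per library, H19 was at least 71.3-fold lower in IL-4/13 + Inf than in control libraries. The fall with Inf was called (edgeR adjusted p = 2.58e-16). IL-4/13 alone gave −0.34 on the log2 scale (95% interval −0.67 to −0.01, edgeR adjusted p = 0.215).

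Of 9 genes with an IGFBP-type domain outside the Igfbp family, 7 were tested, and IL-4/13 raised 1 and lowered 2, where 2.78% and 2.57% of all tested genes were called. Ccn2, connective tissue growth factor, had 19.02 ± 1.90 CPM with vehicle, 29.1 ± 1.44 with IL-4/13, 13.2 ± 0.812 with Inf and 26.8 ± 3.51 with both (SD, n = 3). IL-4/13 raised it 1.53-fold over control (edgeR adjusted p = 3.09e-05) and 2.03-fold over Inf (edgeR adjusted p = 3.35e-09). Ccn5 was the mirror of this, with 13.3 ± 1.59, 7.20 ± 1.18, 29.6 ± 0.821 and 9.46 ± 1.00 CPM in the same order. It was 1.85-fold lower with IL-4/13 (edgeR adjusted p = 6.57e-06) and 3.11-fold lower with IL-4/13 + Inf than with Inf (edgeR adjusted p = 8.64e-13). Pik3ip1, an inhibitor of PI3K, was also lower with IL-4/13 against control (−0.54, edgeR adjusted p = 0.000917) and against Inf (−0.41, edgeR adjusted p = 0.0033).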
